A study of Mus musculus with 2 samples.

Results

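A set of 10 genes of insulin, AKT, FOXO and mTOR signalling was followed in a list of RNA positions pulled down with the RNA acetyltransferase NAT10 from mouse hearts. They were the receptors Insr and Igf1r, the receptor substrates Irs1 and Irs2, the kinases Akt1 and Akt2, the transcription factors Foxo1 and Foxo3, the kinase Mtor and its partner Rictor. Genes were chosen by name, with earlier results of these data known. A gene counted as a member with a summit when the table named it as the gene that a summit overlapped. A summit is a single base that the authors' peak caller reported within a peak of the pulldown called over Input. Of the 10 genes, 4 had a summit (Insr, Irs1, Akt1 and Foxo1) and 6 had none, while 4.22% of all protein-coding genes had one. Each of the 4 had exactly 1 summit, so they held 4 of the 2020 summits in the list.

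RNA immunoprecipitation sequencing (RIP-seq) recovers the RNA held by a tagged protein. Wild-type mice received AAV9-cTnT-FLAG-NAT10, an adeno-associated virus with FLAG-tagged NAT10 behind the cTnT promoter of heart muscle cells, under the skin at day 1 after birth, and hearts were taken 20 days after injection. The Input library came from 10% of the heart lysate and the RIP library from the anti-FLAG pulldown of the rest, both from hearts carrying the virus, with 1 library of each. There were no replicates, no pulldown from hearts without the tagged protein and no test of any difference. Because the bait was driven by a heart muscle promoter, the bound RNA stands for cardiomyocytes only as far as that promoter restricts it. Of 8 cardiomyocyte markers 5 had a summit, with a strongest score of 1524 in Myh6, and 3 had none (Tnnt2, Actc1 and Pln). Of 4 markers listed for skeletal muscle (Ckm, Myh1, Myh4 and Acta1) 0 had one, which does not show that their RNA was absent. Whether these 4 genes mark skeletal muscle alone in heart tissue was not tested. Summits were also found in 2 of 5 endothelial, 2 of 4 fibroblast, 1 of 4 leukocyte and 1 of 3 smooth muscle markers. Their strongest scores ran from 2.69, in an intron of the leukocyte marker, to 24.9. Over all protein-coding genes the share with a summit was 4.22%. The part of RNA from these other cell types in the results was not tested. In whole heart tissue, fewer cells of a type and less RNA per cell cannot be told apart.

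Insulin and insulin-like growth factors bind receptor tyrosine kinases, which phosphorylate IRS proteins and so recruit phosphoinositide 3-kinase (PI3K). Its lipid product brings AKT to the membrane, where PDK1 and mTOR complex 2 activate it. AKT keeps FOXO factors out of the nucleus, promotes glucose storage, and relieves the TSC brake on mTOR complex 1, which drives protein synthesis. In the heart the pathway is known for its part in growth after birth, in glucose use and, through FOXO factors, in protein breakdown during atrophy.

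The score of a summit was the authors' -log10 value from the peak caller, a p-value or a q-value. Enrichment and abundance of an RNA cannot be told apart in it, and no counts or depths came with it. Over all 2020 summits the scores ran from 1.32 to 4922, with a median of 12.5 and quartiles of 5.83 and 28.3. The 4 summits of the set scored 19.9 in Akt1, 13.3 in Foxo1, 4.72 in Insr and 4.02 in Irs1. Akt1 and Foxo1 thus lay between the median and the upper quartile of the list, and Insr and Irs1 lay below the lower quartile. The median of the 4 scores was 9.01, against 14.2 for the strongest score over all 919 protein-coding genes with a summit. Of those genes 642 (69.9%) also had exactly 1 summit, and the median score of these was 11.2.

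**Figure D1:**
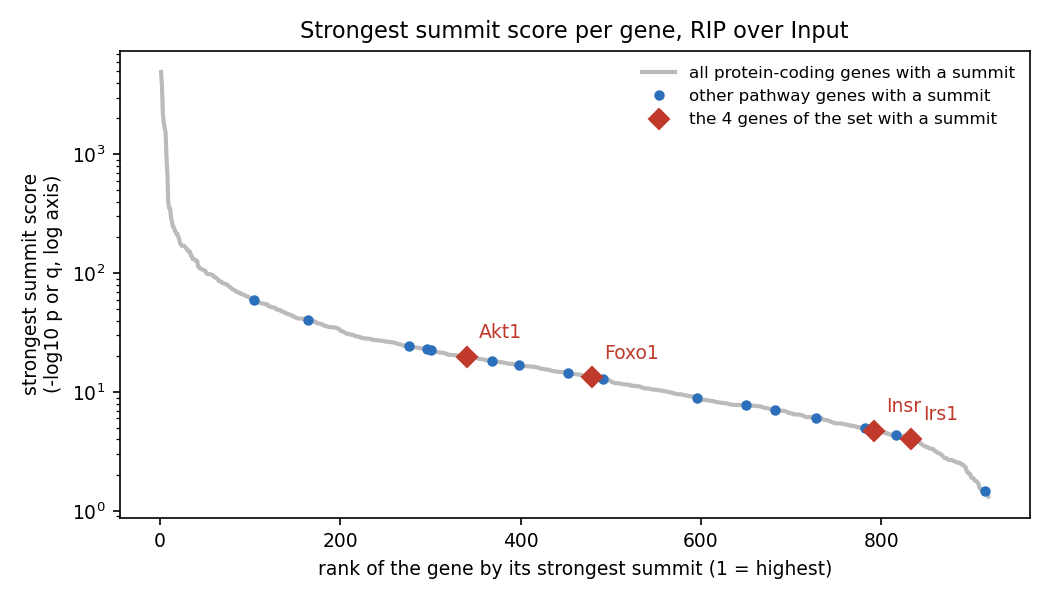
Strongest summit score of each of the 919 protein-coding genes with a summit (grey line; -log10 p or q, log axis) against the rank of the gene. Red diamonds mark Akt1 at 19.9, Foxo1 at 13.3, Insr at 4.72 and Irs1 at 4.02, and blue points mark the 16 other pathway genes with a summit, which run from Larp1 at 59.6 down to Gsk3b at 1.48.

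A summit was found in 4.22% of the 21770 annotated protein-coding genes. Against this background stands the count of 4 of 10, but the genes were chosen with earlier results of these data known, and most are long. The share of genes with a summit went up with transcript length, from 1.15% in the shortest of 10 equal classes of canonical transcript length to 12.4% in the longest. Of the 10 genes, 8 fell in the longest class (6654 bases and more), and 3 of these 8 had a summit. Akt1, with a canonical transcript of 3228 bases, fell in the sixth class, where 3.77% of genes had a summit. Akt2, with 4593 bases, fell in the eighth class, where 4.55% had one.

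**Figure D2:**
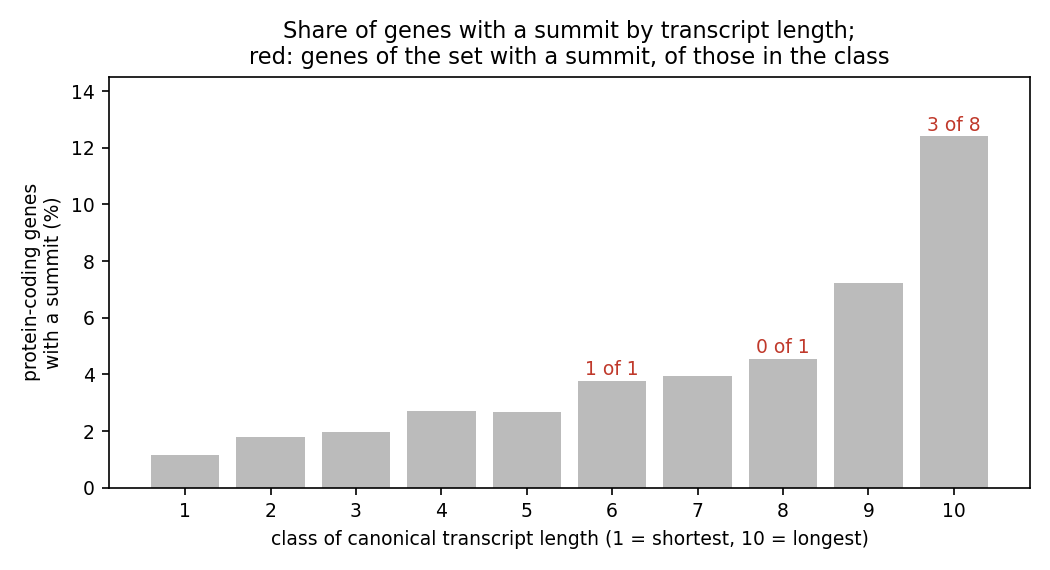
Share of protein-coding genes with a summit (bars, in percent) in 10 classes of canonical transcript length, from shortest to longest. Red labels give the genes of the set with a summit out of those in the class: 1 of 1 in class 6, 0 of 1 in class 8 and 3 of 8 in class 10, where 12.4% of all genes had one.

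The genes with and without a summit overlapped in length. The 4 with a summit had canonical transcripts of 3228 to 9385 bases (median 9005), and the 6 without had 4593 to 12466 (median 7980). Their 3' untranslated regions (UTRs) also overlapped in length, with 880 to 6243 bases in the former and 826 to 7270 in the latter. The longest transcript of the set, that of Igf1r, had no summit, and the shortest, that of Akt1, had the highest score.

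The count of the set depended on the score and on how a summit was given to a gene. The scores of Akt1 and Foxo1 reached the median of the list, as did those of 2.29% of all protein-coding genes, and 0 of the 10 reached the upper quartile, as 1.04% of all did. With the closest transcription start in place of the overlapped gene, 2 of the 10 were named, Insr and Irs1, and 2.88% of all genes. Within RefSeq gene bounds the count was 4 of 10 against 4.42%, and with summits in exons or UTRs alone it was 4 of 10 against 3.99%. A summit in the 3' UTR was found in 2 of the 10 genes and in 2.85% of all protein-coding genes.

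At the receptor level, Insr (ENSMUSG00000005534), the insulin receptor, had its summit in the 5' UTR, at position 3279266 on chromosome 8 of GRCm38, on the minus strand. The base lay 351 from the transcription start that the table used and 383 from the RefSeq gene start. The canonical 5' UTR is 519 bases long in GENCODE. Only 34 of the 2020 summits (1.68%) lay in a 5' UTR, and Insr ranked 27 among these by score. The distance of the Insr summit from the gene start was near the middle of 28 such summits that could be placed in exactly 1 gene, whose median was 341.5 bases (quartiles 221.5 and 799.5). Igf1r, the receptor of insulin-like growth factor 1, had no summit, and the nearest summit of any gene lay 2581 kb outside its RefSeq bounds on chromosome 7.

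Irs1 (ENSMUSG00000055980), a docking protein phosphorylated by both receptors, had its summit in coding sequence, at position 82288166 on chromosome 1, on the minus strand. The table placed it in exon 1, 3250 bases from the start. Exon 1 of the canonical Irs1 transcript is 4841 bases long and holds the whole coding sequence of 3693 bases, so this summit lay inside a long exon. By score it ranked 871 of the 1022 coding exon summits. Of those, 45 lay in exon 1 of their gene. Irs2, the second substrate, which also has nearly all of its coding sequence in a long first exon (5030 bases), had no summit, and the nearest lay 2210.1 kb away on chromosome 8. The summits of Insr and Irs1 were the weak ones of the set. They lay at 0.298% and 5.61% of the RefSeq span, which includes introns. Along the mRNA, only the Insr summit lay near the start. The Irs1 summit lay 3250 bases in, past a 5' UTR of 1124 bases, in a canonical transcript of 9345 bases.

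**Figure D3:**
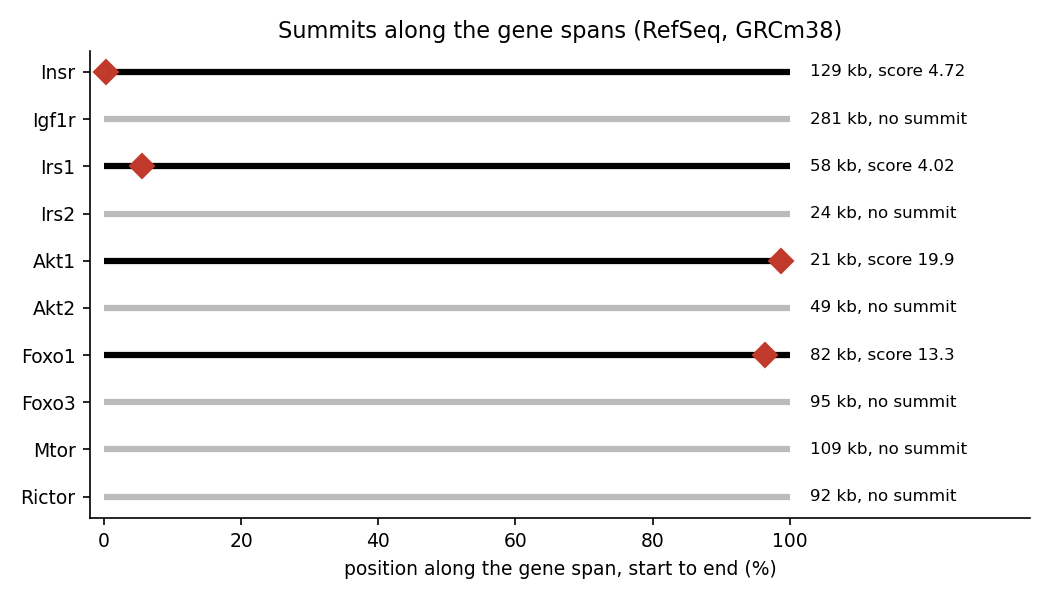
Position of each summit (red diamond) along the RefSeq span of its gene in GRCm38, introns included. The span runs from start to end in the direction of transcription, in percent, with its length and the score at the right. Insr and Irs1 have their summit in the first 5.61% of the span, Akt1 and Foxo1 at 98.8% and 96.4%, and the 6 genes drawn in grey have none.

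Akt1 (ENSMUSG00000001729), the widely expressed AKT kinase, had the highest score of the set, 19.9, at position 112654082 on chromosome 12, on the minus strand. The summit lay in the 3' UTR, 261 bases before the RefSeq gene end. It ranked 718 of all 2020 summits, 254 of the 736 summits in 3' UTRs, and 340 of 919 genes by strongest score. Akt2, the AKT kinase tied most closely to insulin-stimulated glucose uptake, had no summit. The nearest lay 101 kb outside Akt2 on chromosome 7, in Sertad1, with a score of 24.0.

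Foxo1 (ENSMUSG00000044167), a forkhead factor held in the cytoplasm by AKT, had its summit in the 3' UTR at position 52347151 on chromosome 3, on the plus strand. The score of 13.3 ranked 972 of all summits and 367 of the 736 in 3' UTRs, near the middle of both orders. The base lay 2958 bases before the RefSeq gene end, in a canonical 3' UTR of 6243 bases. Over 664 summits in the 3' UTR of exactly 1 gene, the median distance to the gene end was 422 bases (quartiles 225 and 1666). The Akt1 summit was nearer to its end than that median and the Foxo1 summit farther than 84.2% of these summits. Foxo3, the other FOXO gene of the set, had no summit, and the nearest lay 274 kb away on chromosome 10, in Sesn1, at a score of 16.9.

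Neither mTOR gene had a summit. Mtor encodes the kinase shared by both mTOR complexes, and the nearest summit lay 396 kb outside it on chromosome 4, in Casz1. Rictor encodes the scaffold that defines mTOR complex 2, and the nearest summit lay 1491 kb away on chromosome 15, in Nipbl. No summit of another gene or of no gene therefore fell inside the RefSeq bounds of any of the 6 genes without one. A gene is listed only where a summit passed the authors' threshold, so the lack of one neither shows that its RNA was absent from the pulldown nor that it differed from its relative. In each of the 4 pairs of related genes (Insr and Igf1r, Irs1 and Irs2, Akt1 and Akt2, Foxo1 and Foxo3) 1 gene had a summit, and no level of the other is known. How reads shared by such relatives were aligned or counted is not given in the sources used here.

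Around these 10 genes, 114 other pathway genes were read in lists by role, and 16 of them (14.0%) had a summit, beside the 4.22% over all protein-coding genes. Of the 114, 20 fell in the longest length class and 7 of these (35.0%) had a summit, beside 12.4% of all genes in that class. In the shorter classes it was 9 of 94 (9.57%), beside 3.31%. Their strongest scores ran from 1.48 to 59.6, with a median of 13.6. These counts describe 1 pair of libraries, and the background was not restricted to genes that the heart expresses.

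Upstream of AKT, each step had genes with a summit, beside 4.22% of all protein-coding genes with one. Of 8 ligands and receptors 2 had one, Insr and the ligand Igf1, whose 2 summits in the 3' UTR scored 4.33 and 1.99. Ins1, Ins2, Igf2 and Igf1r were among those without. Of 11 substrates and adaptors 2 had one (18.2%), and these were Irs1 and the docking protein Gab1, at 7.76 in its 3' UTR. Irs2, Irs4, Grb2 and Grb10 had none. Outside the set of 10 genes, 1 of 6 ligands and receptors and 1 of 9 substrates and adaptors had a summit.

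The PI3K step had summits in 3 of 11 genes (27.3%), beside 4.22% of all protein-coding genes. Pik3ca, the catalytic p110-alpha subunit, had 1 in the 3' UTR at 12.9. Pik3r1, the regulatory p85-alpha subunit, had 1 in the 5' UTR at 8.93 and 1 in exon 2 at 5.50. Inppl1, which encodes the lipid phosphatase SHIP2 that removes the product of PI3K, had the highest score of the step, 22.9, in the 3' UTR. Pik3cb, Pik3cd, Pik3cg and Pik3r2 had none.

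Of 8 genes for AKT and the enzymes that act on it 2 had a summit, beside 4.22% of all protein-coding genes. Beside Akt1 this was Pdpk1, which encodes PDK1, the kinase of the AKT activation loop, with 2 summits in the 3' UTR at 14.4 and 2.97. Akt2, Sgk1, Phlpp1 and Phlpp2 were without. Outside the set of 10 genes, 1 of 6 genes of this list had a summit. In the arm of AKT that handles glucose, 3 of 9 had a summit (33.3%), beside the same 4.22%. The hexokinase gene Hk2 had 3, of which the strongest, 40.7, lay in the 5' UTR and the other 2 in the 3' UTR. Gsk3a, a glycogen synthase kinase that AKT inhibits, scored 24.4 in the 3' UTR, and its second summit, at 3.01, overlapped another gene as well. Its relative Gsk3b had 1 summit in the 5' UTR at 1.48, close to the lowest score of the list. Gys1, Tbc1d1, Tbc1d4 and Slc2a4, the insulin-regulated glucose transporter gene, had none.

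Of 4 FOXO genes 1 had a summit, Foxo1, a larger share than the 4.22% of all protein-coding genes, but one resting on 1 gene. Of 16 FOXO target genes 1 had a summit (6.25%), a share near that background. This was Sesn1, a stress-induced sestrin that restrains mTOR complex 1. Its 2 summits in the 3' UTR scored 16.9 and 2.66. Fbxo32 and Trim63, the ubiquitin ligases of muscle atrophy, and Pdk4 and Sesn3 had none.

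On the mTOR side, 0 of 11 subunits and assembly factors of the mTOR complexes had a summit, Mtor, Rptor, Rictor and Mlst8 among them. With 4.22% of all protein-coding genes having one, a list of this size can hold none without standing apart from the background. Of 28 genes that feed into mTOR complex 1, 2 had one (7.14%), a share near that background: Fnip1, a partner of folliculin, at 7.04, and Prkab2, a subunit of the energy sensor AMPK, at 4.94, both in the 3' UTR. A second Prkab2 summit at 2.86 overlapped another gene. Tsc1, Tsc2, Tbc1d7 and Rheb had none. Of 18 genes downstream of mTOR complex 1, 4 had a summit (22.2%), beside 4.22% of all protein-coding genes. Larp1, an RNA-binding protein that represses ribosomal protein mRNAs, had the highest score of the 124 genes in the role lists, 59.6, at position 58059604 on chromosome 11, and a second of 13.5, both in the 3' UTR. Tfeb, a transcription factor of lysosome genes, scored 22.7 and Lpin1, a phosphatidate phosphatase, 18.3, both in the 3' UTR. The initiation factor Eif4b scored 6.09 in exon 9. Rps6kb1, Rps6kb2, Rps6 and Eif4ebp1 had none. Differences between these lists, or between a list and the background, were not tested, and the shares per list were not split by transcript length.

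**Figure D4:**
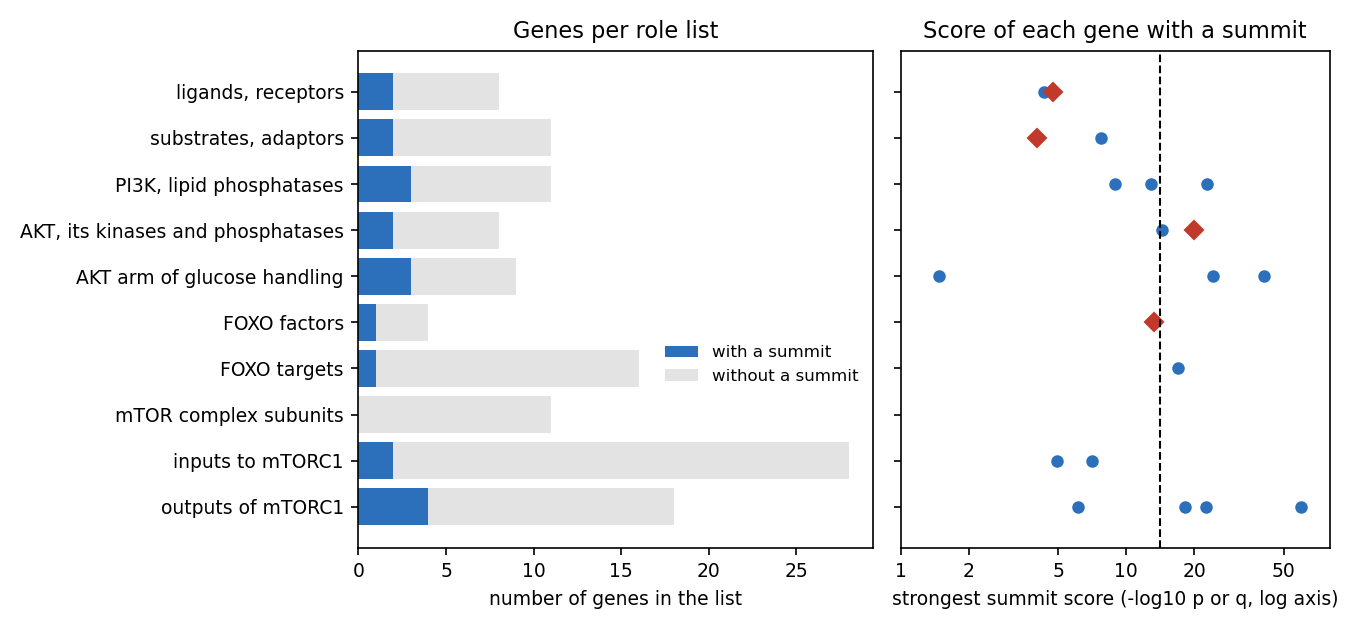
Left, the number of genes in each of 10 role lists with (blue) and without (grey) a summit, from 0 of 11 mTOR complex subunits to 4 of 18 outputs of mTOR complex 1. Right, the strongest score of each gene with a summit (-log10 p or q, log axis), with genes of the set as red diamonds, other pathway genes in blue and a dashed line at 14.2, the median over all genes with a summit.

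By region, 22 of the 29 summits of all 124 pathway genes lay in 3' UTRs, 4 in 5' UTRs and 3 in coding exons. Each took the label of its pathway gene, also the summits of Gsk3a and Prkab2 that overlapped another gene. Of all summits in the list 36.4% lay in 3' UTRs and 50.6% in coding exons, where a few giant muscle genes hold many summits each. Counted by gene, 15 of the 20 pathway genes with a summit had one in the 3' UTR, as did 67.5% of all 919 protein-coding genes with a summit. Among the 10 genes of the set, 2 of the 4 summits lay in a 3' UTR (Akt1 and Foxo1), 1 in a 5' UTR (Insr) and 1 in a coding exon (Irs1). The 2 in 3' UTRs were the stronger, but in the whole list the median scores of these regions were alike, at 13.2 in 3' UTRs, 13.2 in 5' UTRs and 12.4 in coding exons.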

How the data were processed

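RIP-seq of 1 Input and 1 RIP library of mouse hearts was analysed from the table of summits that the authors deposited. Per the submitters' processing notes, fastp, BWA 0.7.12, MACS2 2.1.0 and HOMER were used and the build was GRCm39, with paired reads of 150 bases. The table holds 1 -log10 p-value or q-value per summit, deposited by the authors. The header of that column is a spreadsheet error, so which of them it is stays unknown, and scores were used only to describe and rank summits within this list. Scores were read as deposited, and repeated lines of a summit were counted once.

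The positions follow GRCm38: 98.9% of 1914 gene lines lay inside their RefSeq GRCm38 gene and 28.5% of 2140 inside their GENCODE gene on GRCm39. Positions are therefore given 1-based in GRCm38. GENCODE release M39 gave only gene types, strands and lengths of the Ensembl canonical transcript, and 973 of 990 gene identifiers matched. Sequence around the summits was not analysed here.

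Over the whole list, a summit in several genes was counted in 1 region. Coding exons were taken before 3' UTRs, these before 5' UTRs, then non-coding exons and introns. For counts by gene, and for summits of the 124 pathway genes, the region labelled for that gene was used. Lengths were cut into 10 classes of equal size. The rule for named genes was the 10 genes, every gene with a summit in 10 role lists (124 genes), and up to 4 without one per list in list order. Some genes of the pathway are not reported here and were left out of the lists. Cell type markers were given as counts, and those named were the strongest one, the cardiomyocyte markers without a summit and the skeletal muscle markers. Genes, lists and alternatives were chosen with earlier results of these data known, so the counts are a description, with no test and no interval. Alternatives changed the score threshold, the gene assignment, the regions counted, the region column or the summary over summits, or merged summits within 200 bases. The counting steps, tested on simulated data with 1 gene per summit, returned the genes, scores and regions put in. Summits shared by genes, 5' UTR labels, the order of regions and the length classes were not part of that check. No counts came with the summits, so the depth of either library is unknown. Python 3.11.15 and pandas 2.3.3 were used.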

Additional observations from a re-analysis of the deposited data

How the results depend on the processing

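The count of 4 genes of the set with a summit stayed at 4 under RefSeq GRCm38 gene bounds, with only exon or UTR summits and with only summits that overlap exactly 1 gene. It was 2 (Akt1 and Foxo1, with 2 summits) when only scores at or above the median of the list were kept, where 2.29% of all protein-coding genes had a summit. It was 0, with 0 summits, at or above the upper quartile, where 1.04% of genes had one. It was also 2 (Insr and Irs1) when summits were assigned by the closest transcription start, where the background was 2.88%, because the starts nearest to the Akt1 and Foxo1 summits belong to other genes. The number of pathway genes with a summit was 20 in the list as deposited and under RefSeq bounds, 11 at the median score and 2 at the upper quartile. The count of summits in 3' UTRs and the median score of the set were the same under the alternatives run for them. No paired analysis was possible because there was 1 library per group and no test. Leaving out a replicate was not possible for the same reason. The table holds no counts, so depth sets no limit that could be computed, and the score threshold of the list decides which genes appear in it.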

Other observations

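The table's own Gene Ontology labels named further genes with a summit that respond to insulin. They were read after the values were seen, and genes without a summit carry no label here, so no share can be given. The label for the insulin receptor signalling pathway was held by 4 genes with a summit: the pyruvate dehydrogenase kinase Pdk2 at 109, Phip, an IRS-interacting protein, at 6.97, Socs7 at 6.58 and Irs1 at 4.02. The label for the response to insulin was held by 5 genes, 3 of them outside the role lists, led by the fatty acid binding protein Fabp3 at 223, the highest score under any of the 7 labels searched. The label for the cellular response to insulin stimulus was held by 8 genes, 6 of them outside the role lists, led by the mitochondrial carrier Ucp2 at 174, the pyruvate kinase Pkm at 141 and the aspartate aminotransferase Got1 at 52.9. The label for TOR signalling was held by 1 gene with a summit, Larp1. The labels for insulin-like growth factor receptor signalling and for phosphatidylinositol 3-kinase signalling were each held by Irs1 alone, and that for protein kinase B signalling by 0 genes. Insr, Akt1 and Foxo1 carried none of these labels, so these labels miss known genes of the pathway.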
